A study of Chlorocebus sabaeus with 12 samples.

Results

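The response to chenodeoxycholic acid (CDCA) that cells expressing the S154A and cells expressing the S154D mutant of the bile acid receptor FXR had in common was measured as the mean of the changes, CDCA minus DMSO, seen with each mutant. All 12 of the 12 arrays of the series entered it, chosen by their titles, with 6 CDCA arrays against 6 DMSO arrays and the mutant as a factor. The cells were COS-1, an established kidney line of the African green monkey, made to express human FXR S154A or S154D transiently for 24 h. They were then kept for 24 h in 0.1% DMSO or in CDCA, whose concentration the labels give as 50 mM. A DMSO content is given for the DMSO samples alone. A difference in DMSO content therefore cannot be told apart from an effect of CDCA. Each of the 4 groups had 3 arrays, and the labels do not say that replicates were separate cultures, so the errors and p-values measure the spread between arrays, which may be technical. No array of wild-type FXR or of untransfected cells entered the comparison. A change that both mutants showed therefore cannot be told apart from an effect of CDCA on these cells without the introduced receptor.

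FXR, encoded by NR1H4, is a nuclear receptor that binds bile acids and, together with the retinoid X receptor, switches on genes for the handling of bile acids in ileum, liver and kidney. CDCA is a primary bile acid and one of the strongest natural ligands of FXR. The residue changed in both mutants is a serine in the wild-type protein: alanine in its place cannot be phosphorylated, and aspartate carries a negative charge that is used to imitate a phosphate. Bile acids also reach cells by routes that need no FXR, among them other nuclear receptors, a membrane receptor, and stress of membranes and of the endoplasmic reticulum.

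Signal came from one-colour Agilent human arrays with probes of 60 bases, read with monkey RNA, and levels below are log2 intensities relative to the 75th percentile of each array, so a level of 0 is that percentile and a difference of 1 is a doubling. The 75th percentile lay between 1235 and 2105 intensity units, and 61.6% to 79.8% of spots were well above background. Of 20357 genes tested, 10270 had a name found among the RefSeq symbols of the green monkey. The probe for NR1H4 read 7.46 to 7.94 on the 12 arrays with no call between treatments, and it does not tell the mutants apart. Of the defining markers, 13 of 17 for kidney epithelium and 9 of 12 for fibroblasts were well above background on all 12 arrays, led by VIM at 7.16 and KRT18 at 6.17. The fibroblast marker COL1A2 and the leukocyte marker PTPRC, like the hepatocyte markers APOB and G6PC, were well above background on no array, while 7 of 16 hepatocyte and 7 of 12 leukocyte markers were so on all 12. The arrays lay on 4 slides, of which slide 3 held all 4 groups, and the 3 arrays of S154A with DMSO all had the first position of their slide, so position and group cannot be told apart there. S154D CDCA replicates 1 and 3 lay on slide 2 and replicate 2 on slide 3. The S154D DMSO replicates 1, 2 and 3 lay on slides 1, 4 and 3. Outside slide 3 the S154D change therefore compares arrays of different slides, where slide and treatment cannot be told apart.

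On the average over both mutants, CDCA raised 8 genes and lowered none at an adjusted p under 0.05 (limma with Benjamini-Hochberg adjustment over all genes), which is 0.0393% of the genes tested. FABP6, the ileal bile acid-binding protein, led with an average rise of 3.62 ± 0.40 (SE, adjusted p = 0.0113). OSTalpha, a subunit of the basolateral bile acid exporter, rose by 1.38 ± 0.12 (adjusted p = 0.00345), and RBP4, the plasma carrier of retinol, by 1.24 ± 0.10 (adjusted p = 0.00256). The others were the unnamed probe A_32_P232437 (1.58), the transcript ENST00000373208 (1.06), MYOM2 (0.99), a protein of the muscle M-band, BAIAP2L2 (0.82), which links membranes to actin, and MT2A (0.76), a metallothionein. At an unadjusted p under 0.05 the average moved in 3555 genes (17.5%), 1824 higher and 1731 lower.

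In all 8 called genes the change with S154A was the larger, and in 6 of them the responses to CDCA differed between the mutants at an adjusted p under 0.05. FABP6 stood at -3.47, -4.89 and -5.32 with S154A in DMSO and at 2.58, 2.53 and 2.45 in CDCA. With S154D it stood at -6.16, -6.01 and -6.29 in DMSO and at -4.75, -6.02 and -7.20 in CDCA. There it was well above background on 1 DMSO array and 2 CDCA arrays. The S154A arrays were fully apart and the S154D arrays overlapped, and the average of 3.62 is the mean of 7.08 ± 0.57 with S154A and 0.16 ± 0.57 with S154D. OSTalpha, RBP4, MYOM2 and A_32_P232437 had S154A rises of 2.56, 2.21, 1.81 and 3.09, and S154D changes of 0.20, 0.26, 0.18 and 0.07 whose 95% intervals included 0. Only ENST00000373208, BAIAP2L2 and MT2A of the 8 also had an unadjusted p under 0.05 with S154D. FGF19, the hormone through which ileal FXR restrains bile acid synthesis, was not called on the average (limma adjusted p = 0.147). With S154A it was well above background on no DMSO array and on all 3 CDCA arrays, a rise of at least 24.5-fold, and with S154D its change was 0.21 ± 0.76. A second probe of FGF19 had an S154D change of -1.37 ± 0.42. A rule that also asked for an average of at least 2-fold kept 5 of the 8.

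**Figure D1:**
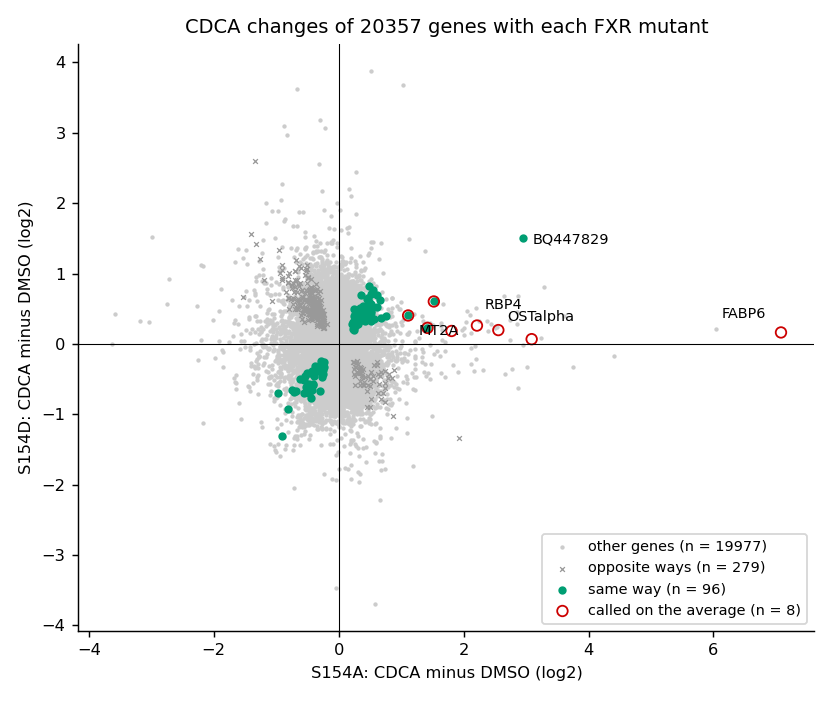
Change with CDCA (log2, CDCA minus DMSO) of each of 20357 genes with S154A (x axis) and with S154D (y axis). Green dots are the 96 genes that moved the same way with both mutants, grey crosses the 279 that moved opposite ways, and red circles the 8 called on the average, which all lie farther along the S154A axis than along the S154D axis.

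A gene was counted as moved the same way where the changes with both mutants had one sign and each had an unadjusted p under 0.05. This held for 96 genes (0.472%), 58 higher (0.285%) and 38 lower (0.187%) in CDCA, called risers and fallers here. Opposite ways under the same rule went 279 genes (1.37%), 217 of them lower with S154A and higher with S154D. The changes with each mutant come from separate arrays. Alone, 1207 genes (5.93%) passed with S154A and 6104 (30%) with S154D. When the larger of both p-values was adjusted over all genes, no gene passed, the smallest adjusted value being 1 and the smallest larger p 0.00115, of IL1RL1. The genes below are therefore a description of where both mutants pointed one way, and none was called in both mutants together.

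The 96 changes were small. The average change had a median size of 0.42, and 3 genes averaged 2-fold or more, among them BQ447829, whose S154A change is a bound. The 58 risers had a median change of 0.38 with S154A and 0.42 with S154D, and the 38 fallers had medians of -0.42 and -0.45. In 73 of the 96 the CDCA and DMSO arrays did not overlap with either mutant, as they did in one direction in 235 of all genes (1.15%). The choice of the 96 by p on these arrays fixes that count in large part, and nothing is read from it. The responses differed between the mutants at an unadjusted p under 0.05 in 3 of the 96, which were ENST00000373208, BAIAP2L2 and MT2A. For the other 93 the 95% interval of the difference had a median half-width of 0.43, and in 89 it lay within a 2-fold change either way. The choice of the 96 by sign and p with both mutants in the same fit favours like changes. Nothing is therefore read from these counts of differences either.

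Single arrays weighed on these counts. Without S154D CDCA replicate 1, 80 genes were called on the average, 17 higher and 63 lower, and 247 moved the same way, 77 of the 96 among them. That array lay farthest from its group, at a median distance of 0.26 from the mean of its partners, against 0.12 to 0.23 for the other 11. Of the 80 genes, 75 had an unadjusted p under 0.05 on all 12 arrays, and the probes of the 63 lower ones had a median of 55% G and C bases. Fewer than 6 calls on the average were left without S154A DMSO replicate 1 (4), S154A DMSO replicate 3 (3), S154A CDCA replicate 3 (5) or S154D DMSO replicate 3 (5). The same-way count was 54 without S154A DMSO replicate 2, 57 without S154A CDCA replicate 1, 62 without S154D CDCA replicate 2 and 56 without S154D CDCA replicate 3.

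MT2A and BAIAP2L2 were the genes with a symbol that were both called on the average and moved the same way. Metallothioneins are small cysteine-rich proteins that bind zinc, copper and cadmium, and their genes lie in a cluster on human chromosome 16. The intensity of MT2A was 3.65, 3.64 and 3.43 with S154A in DMSO and 4.53, 4.88 and 4.65 in CDCA. With S154D it was 3.40, 3.52 and 3.39 in DMSO and 3.73, 3.77 and 4.02 in CDCA. Every CDCA array was above every DMSO array of the same mutant, by 2.16-fold on average with S154A (1.11 ± 0.13) and 1.32-fold with S154D (0.40 ± 0.13). The average of 0.76 ± 0.09 had an adjusted p of 0.0141, and the difference of the responses, S154D minus S154A, was -0.71 (95% interval -1.10 to -0.32, adjusted p = 0.0875).

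The MT2A transcript was listed by 3 probes, and all 3 were higher in CDCA with both mutants. They are shown by their first 30 bases, read 5′ to 3′ as deposited, with G and C in capitals, because the base composition of a probe moves with the results below.
MT2A, probe in use: CaaCCCtGaCCGtGaCCGtttGCtatattC
MT2A, second probe: CGCtCCCaGatGtaaaGaaCGCGaCttCCa
ENST00000245185: CtGaCCGtGaCCGtttGCtatattCCtttt
The whole probes lie at chr16:55200833-55200892, chr16:55200782-55200841 and chr16:55200838-55200897 of human build hg17, and the probe in use and ENST00000245185 share 55 bases, so those 2 are not separate measurements. G and C made up 35%, 45% and 30% of them. The second probe changed by 1.07 ± 0.15 with S154A and 0.71 ± 0.15 with S154D. ENST00000245185 changed by 0.67 ± 0.16 and 0.63 ± 0.16. Probes of metallothionein genes can take up each other's transcripts, so which family member gave the signal is uncertain.

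The other metallothioneins with the larger changes had them with S154A. MT1X stood at 4.35, 4.53 and 4.18 with S154A in DMSO and at 4.87, 5.50 and 4.93 in CDCA, a change of 0.75 ± 0.18 without overlap. With S154D it stood at 4.31, 4.50 and 4.05 in DMSO and at 4.38, 4.40 and 4.53 in CDCA, a change of 0.15 ± 0.18 with overlapping arrays. MT1H, MT1B and MT1G had changes of 0.82, 0.65 and 0.60 with S154A and of 0.14, 0.02 and 0.00 with S154D. Of 10 metallothionein genes tested, 5 passed an unadjusted p under 0.05 upward with S154A and 1 with S154D, and none downward with either, where 5.93% and 30% of all genes passed in either direction. The list that adds zinc transporters had 15 tested members, of which 1 was called on the average, 6 passed an unadjusted p under 0.05 upward and none downward (40%, against 17.5% of all genes), and 12 averaged above 0. Its median was 0.18, against -0.02 over all genes.

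Correction of each array for the base composition of the probes raised the S154D changes of some metallothionein probes and lowered those of others, and 9 of the 10 genes were then above 0 with S154D in place of 7. With it, MT1X changed by 0.86 with S154A and 0.54 with S154D, MT1H by 0.93 and 0.53, and MT1B by 0.73 and 0.33, and 4 of the 10 genes moved the same way in place of 1. The probe in use for MT2A, by contrast, fell from 0.40 to 0.11 with S154D, and MT2A then moved the same way no longer on that probe, while its second probe went from 0.71 to 0.80. ENST00000245185 went from 0.63 to 0.14. Of these probes, those with higher S154D values after the correction held 45%, 55% or 60% G and C, and those with lower values 30% or 35%. With slide as a block the probe in use for MT2A changed by 1.07 and 0.44 and kept the rule. On the average MT2A lost its call under either setting, with a limma adjusted p of 0.109 under the GC correction and 0.112 with the block.

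**Figure D2:**
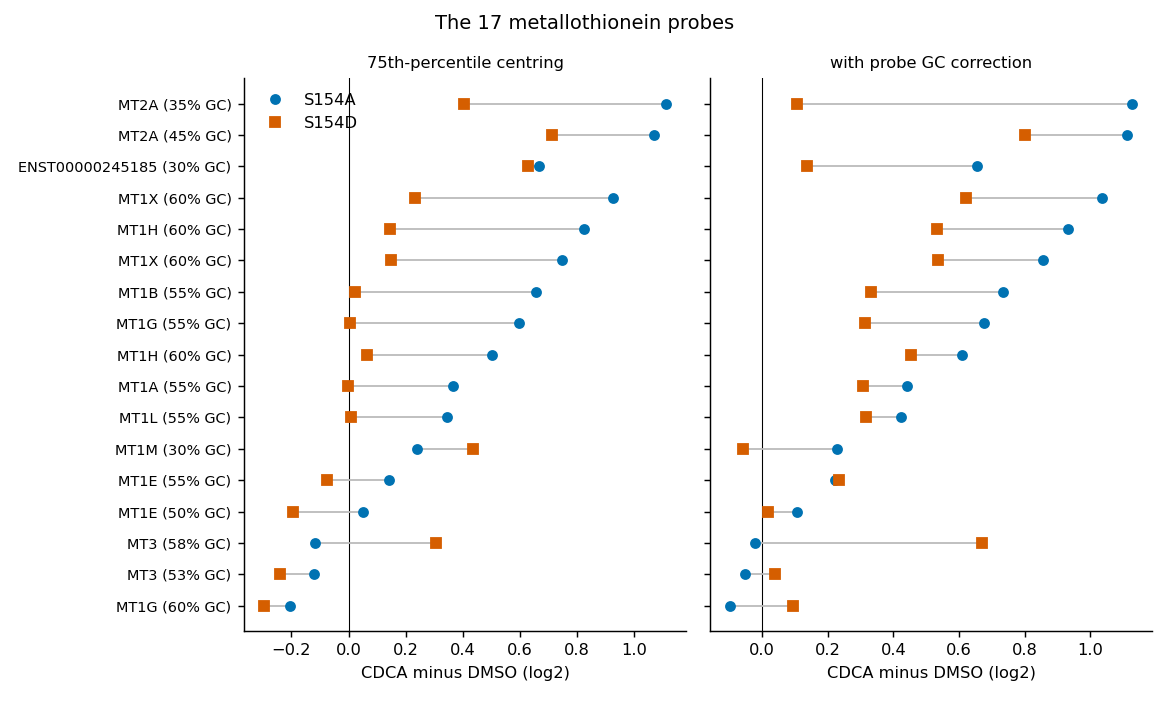
Change with CDCA (log2) of 17 metallothionein probes with S154A (blue circles) and S154D (orange squares), on the left after centring on the 75th percentile and on the right with the correction for probe GC content. A grey line joins both mutants on one probe, and each name carries the share of G and C bases. The S154A values stay nearly in place while the S154D values of GC-rich probes move to the right and those of GC-poor probes to the left.

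The 7 other risers with a symbol described here for their small larger p had S154A changes of 0.37 to 0.68 and S154D changes of 0.37 to 0.54, and none was called on the average. IL1RL1, the receptor of interleukin 33, had the smallest larger p. It stood at 0.42, 0.58 and 0.43 with S154A in DMSO and at 1.01, 0.81 and 0.84 in CDCA. With S154D it stood at 0.28, 0.39 and 0.35 in DMSO and at 0.78, 0.74 and 0.82 in CDCA. The treatments did not overlap with either mutant, the changes were 0.42 ± 0.09 and 0.44 ± 0.09, and the 95% interval of their difference was -0.27 to 0.32. On the average IL1RL1 had an adjusted p of 0.0963. Its values were 0.45 and 0.48 with the correction for probe GC and 0.47 and 0.33 with slide as a block, and the rule for the same way held under both.

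BAIAP2L2 was called on the average, with an S154D change of 0.23 ± 0.10 against 1.42 ± 0.10 with S154A. With S154D it stood at -2.19, -2.06 and -2.15 in DMSO and at -1.83, -1.94 and -1.96 in CDCA, groups that did not overlap but lay close. The same-way rule failed for it under the GC correction, where its S154D change was 0.07. ENST00000373208 changed by 1.52 ± 0.18 and 0.60 ± 0.18, and by 1.54 and 0.31 under that correction, where it too failed the rule. Its average also lost its call there, at a limma adjusted p of 0.0998, and with the slide block, at 0.173. The correction called 7 genes on the average, which were 6 of the 8, without MT2A and ENST00000373208, and FETUB, the liver protein fetuin-B, singled out here after its values were seen. KIAA1914 went from -1.83, -1.98 and -1.83 to -1.08, -1.17 and -1.35 with S154A. With S154D it went from -1.93, -1.95 and -1.88 to -1.64, -1.37 and -1.63. These changes of 0.68 ± 0.11 and 0.37 ± 0.11 kept the same way under the GC correction and the slide block, but a second probe of KIAA1914 gave 0.58 ± 0.47 and -0.89 ± 0.47. FLJ14167 went from -1.53, -1.65 and -1.55 to -1.01, -1.26 and -1.35 with S154A, and from -1.63, -1.42 and -1.63 to -1.05, -1.11 and -1.03 with S154D, and also met the rule under both.

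Further risers lay on AT-rich probes. MTSS1, an actin-binding protein, changed by 0.51 ± 0.11 with S154A and 0.44 ± 0.11 with S154D on a probe of 35% G and C. FLJ20366 changed by 0.39 ± 0.12 and 0.54 ± 0.12, also at 35%, and VAV2 by 0.51 ± 0.14 and 0.47 ± 0.14 at 28.3%. Under the GC correction the S154D changes of these 3 genes were 0.15, 0.24 and -0.08, and none met the same-way rule. The mean of all kept probes of VAV2 averaged -0.058. BQ447829, an unnamed transcript, also met the rule. It was well above background with S154A on no DMSO array and on all 3 CDCA arrays, and at least 2.03-fold higher there. With S154D it stood at -5.35, -6.06 and -7.72 in DMSO and at -5.22, -3.70 and -5.70 in CDCA, which overlap, and a single DMSO array was well above background.

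**Figure D3:**
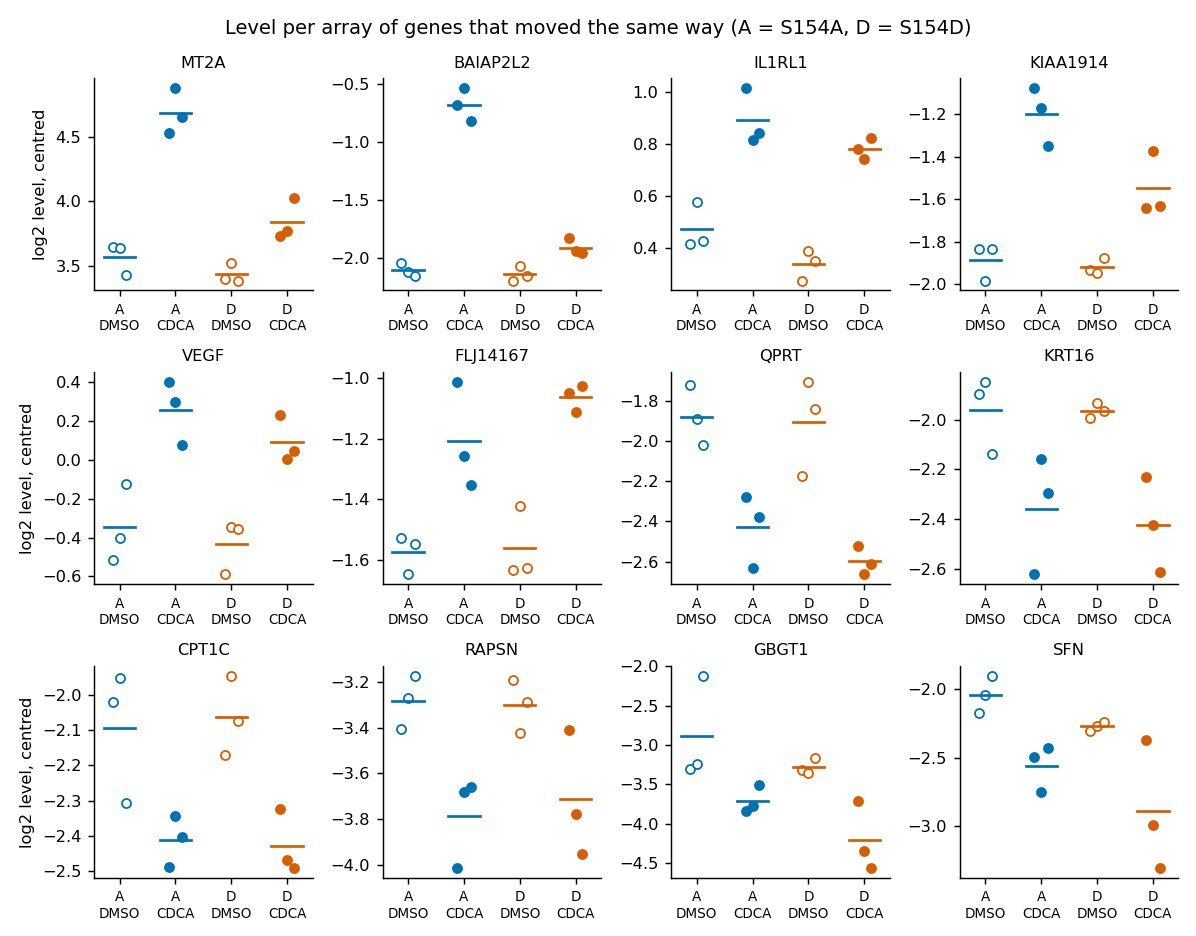
Level on each array (log2 intensity relative to the 75th percentile of the array) of 12 genes that moved the same way, with S154A in blue and S154D in orange, DMSO open and CDCA filled, and a bar at the mean of 3 arrays. The y axes differ between panels and do not start at 0. MT2A, BAIAP2L2, IL1RL1, KIAA1914, VEGF and FLJ14167 are higher in CDCA with both mutants, and the other 6 are lower.

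VEGF, the growth factor of blood vessels, gave different answers on different probes. The probe in use, the brightest, was higher in CDCA with both mutants, with levels of -0.52, -0.40 and -0.12 in DMSO and 0.40, 0.30 and 0.07 in CDCA with S154A, and of -0.59, -0.35 and -0.36 in DMSO and 0.23, 0.00 and 0.05 in CDCA with S154D. Its changes were 0.61 ± 0.14 and 0.53 ± 0.14. The 3 further probes of VEGF had S154A changes of 0.67, 0.53 and 0.51, and S154D changes of -0.42, -0.12 and -0.65. The first bases of the probe in use and of the last of these show the contrast in composition, with G and C in capitals.
VEGF, probe in use, 20% G and C: aGtGttttatataCGGtaCttatttaatat
VEGF, probe with 70% G and C: CCaaCttCtGGGCtGttCtCGCttCGGaGG
They lie at chr6:43861489-43861548 and chr6:43846589-43846648 of hg17. All 4 probes were higher in CDCA with S154A, each at an unadjusted p under 0.05, and with S154D 1 was higher and 3 had negative changes. Under the GC correction the probe in use changed by -0.34 with S154D.

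Of the 96 same-way genes, 24 had another kept probe, and for 6 of the 24 every probe had the same signs. Among all 5073 genes with several probes the share was 34.9% (1769 genes). Those 6 were not chosen by a further test, and MT2A was one of them.

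Base composition ran through the whole set. The probes of the 58 risers had a median of 35% G and C, those of the 38 fallers 52.5% and those of all genes 45%, and 55 of the risers lay below the median of all genes. Across genes, which are not independent and share arrays, the Spearman correlation of probe GC with the change was -0.11 with S154A, -0.56 with S154D and -0.56 for the average. In genes whose probes held 35% up to 40% G and C the median change was 0.30 with S154D and -0.02 with S154A, and in those of 55% up to 60% it was -0.27 and -0.05. Against the mean of all arrays, the 3 S154D DMSO arrays had correlations of log2 signal with probe GC of 0.24 to 0.47, and the 3 S154D CDCA arrays of -0.61 to -0.16. The S154A arrays lay between -0.32 and 0.39 and overlapped between treatments. After the GC correction 42 genes moved the same way, 28 higher and 14 lower, and 16 of the 96 were among them.

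**Figure D4:**
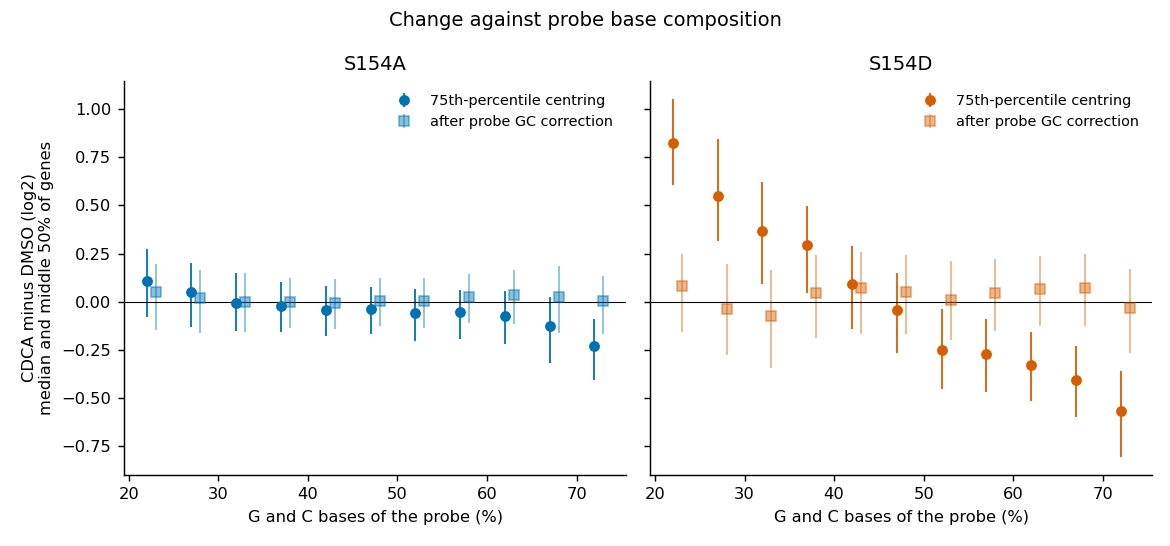
Change with CDCA (log2) in bins of 5 percentage points of probe GC content, the outer bins holding all beyond, for S154A on the left and S154D on the right. Points are medians over the genes of a bin and bars span the middle 50% of genes, for values centred on the 75th percentile (circles) and after the GC correction (squares). The S154D medians fall from 0.82 in the lowest bin, of 41 genes, to -0.56 in the highest, and the S154A medians from 0.11 to -0.23.

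Slide was the other technical factor with values to set beside the counts. With slide as a fixed block 1 gene was called on the average, RBP4, and 35 moved the same way, 22 of the 96 among them. Both the block alone and the GC correction alone kept 6 of the 96, which were BQ447829, A_24_P144543, KIAA1914, FLJ14167, IL1RL1 and QPRT. No gene was called by limma with both applied at once, a fit added after the data had been seen, against 1945 at an unadjusted p under 0.05, and 19 moved the same way. The part of either factor in the responses was not tested.

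Another 4 risers with a symbol kept the rule under the GC correction, and they were picked out after their values were seen. CDC42SE1, a small effector of the GTPase Cdc42, changed by 0.26 ± 0.10 with S154A and 0.31 ± 0.10 with S154D. DLX2, a homeobox factor, changed by 0.29 ± 0.11 and 0.37 ± 0.11, SLC16A9, of the monocarboxylate transporter family, by 0.32 ± 0.14 and 0.49 ± 0.14, and BCOR, a corepressor partner of BCL6, by 0.37 ± 0.16 and 0.42 ± 0.16. Their averages had adjusted p-values of 0.165 to 0.174. The mean of all kept probes of BCOR averaged -0.13. The other probes of CDC42SE1 gave -0.10 with S154A and 0.23 with S154D, and 0.16 and -0.36. With slide as a block none of these 4 genes met the rule.

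QPRT, an enzyme of NAD synthesis from tryptophan, had the smallest larger p among the fallers with a symbol. It stood at -1.72, -1.89 and -2.02 with S154A in DMSO and at -2.28, -2.63 and -2.38 in CDCA. With S154D it stood at -2.17, -1.70 and -1.84 in DMSO and at -2.52, -2.66 and -2.61 in CDCA. All CDCA arrays were below the DMSO arrays, with changes of -0.55 ± 0.14 and -0.69 ± 0.14 and an average of -0.62 ± 0.10 (adjusted p = 0.126). The rule held under the GC correction (-0.48 and -0.41) and with the slide block (-0.54 and -0.73). The second probe of QPRT went the other way with S154A, at 0.45 ± 0.14, and was lower with S154D, at -1.22 ± 0.14.

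The other 9 named fallers had average changes from -0.34 to -0.87, and none was called. GPR109A, the receptor for niacin, changed by -0.97 ± 0.26 with S154A and -0.70 ± 0.26 with S154D. GBGT1, a glycosyltransferase that makes the Forssman glycolipid, changed by -0.82 ± 0.31 and -0.93 ± 0.31, with 1 S154A DMSO array at -2.12 and the others at -3.30 and -3.25. SFN, the 14-3-3 protein sigma, went from -2.18, -2.04 and -1.90 to -2.50, -2.75 and -2.43 with S154A, and from -2.31, -2.27 and -2.24 to -2.37, -2.99 and -3.31 with S154D. Neither pair overlapped, but 1 S154D CDCA array lay beside the DMSO arrays. KRT16, an epidermal keratin, changed by -0.40 and -0.46, MSI1, an RNA-binding protein of neural stem cells, by -0.43 and -0.39, RAPSN, which anchors acetylcholine receptors, by -0.50 and -0.41, and C9orf139 by -0.62 and -0.49. ASMTL changed by -0.37 and -0.40, and CPT1C, a brain relative of the enzyme that brings fatty acids into mitochondria, by -0.32 and -0.36. Under the GC correction none of these 9 met the same-way rule, and their S154D changes then ran from -0.62 to -0.05.

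**Figure D5:**
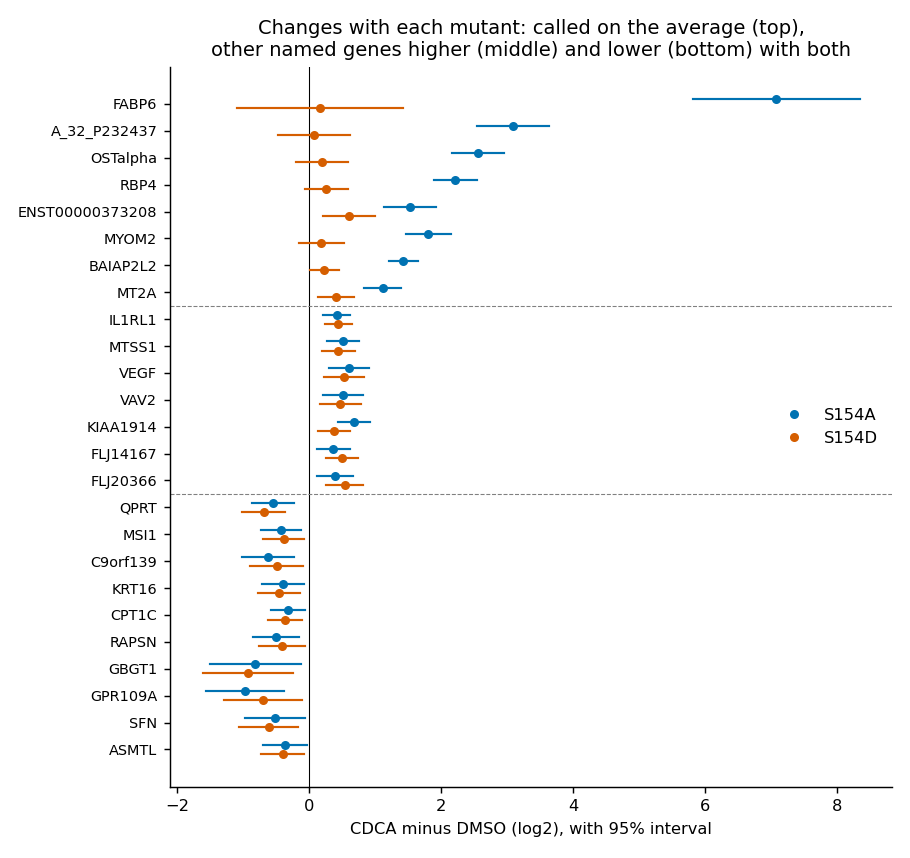
Change with CDCA (log2, points) with its 95% interval (bars) for S154A in blue and S154D in orange, for the 8 genes called on the average (top), 7 further named risers (middle) and 10 named fallers (bottom). Among the called genes the blue points lie to the right of the orange ones, from MT2A at 1.11 against 0.40 to FABP6 at 7.08 against 0.16. In the lower blocks, picked by the larger of both p-values, both points lie within 1 of each other. Those of MT2A and ENST00000373208 do so as well.

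Lists of genes chosen with earlier results of these data known were counted in the same way. FXR targets had 25 tested members of 40, with 2 called on the average (FABP6 and OSTalpha), where 0.0393% of all genes were, and 1 that moved the same way, where 0.472% did. On the average 6 were higher and 2 lower at an unadjusted p under 0.05 (32%, against 17.5%). The same-way member was SLC22A7, an organic anion transporter, at -0.38 ± 0.16 with S154A and -0.39 ± 0.16 with S154D, and its S154A arrays overlapped between treatments. Under the GC correction its S154D change was -0.08 and the rule failed, and a second probe of SLC22A7 gave -1.21 ± 0.56 and 0.28 ± 0.56. The median of the FXR targets was 0.00, against -0.02 over all genes. CPT1C was the single same-way member of 31 genes of fatty acid oxidation, and VEGF that of 37 genes of hypoxia and glycolysis. Among the fibroblast markers PDGFRB, a receptor of platelet-derived growth factor, moved the same way, at 0.56 ± 0.12 and 0.35 ± 0.12, and at 0.56 and -0.08 under the GC correction. The median of the fibroblast list was 0.02, that of the kidney epithelium list 0.00 and that of the hepatocyte list 0.05. The leukocyte list had a median of -0.28, with none of its 9 tested members higher and 3 lower at an unadjusted p under 0.05 on the average (33.3%, against 17.5% of all genes) and 2 above 0. The part of such transcripts in the results was not tested.

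In the other 19 of the 23 lists, with 686 genes tested, no member was called on the average by limma and none moved the same way, while 66 were higher and 49 lower at an unadjusted p under 0.05 (16.8%, against 17.5% of all genes). Their median changes ran from -0.08, for other bile acid sensors and their targets, to 0.11, for the unfolded protein and integrated stress response. Of the 46 genes of that last list 35 averaged above 0, against 45.4% of all genes, with 9 higher and 1 lower at an unadjusted p under 0.05 (21.7%, against 17.5%). The median of that list was 0.16 with S154A and 0.02 with S154D, against -0.04 and -0.01 over all genes, so its shift lay mostly with S154A. ASNS, asparagine synthetase, changed by 0.35 ± 0.18 with S154A and 0.39 ± 0.18 with S154D, and PSAT1, of serine synthesis, by 0.40 ± 0.25 and 0.62 ± 0.25. PHGDH and ERO1LB of the same list went opposite ways with the mutants. PHGDH went from 2.68, 2.77 and 2.33 to 2.94, 3.07 and 3.15 with S154A. With S154D it went from 3.27, 2.82 and 2.97 to 2.39, 2.89 and 2.66. ERO1LB changed by -0.14 and 0.27. Both changes had one sign in 24 of the 46 genes (52.2%, against 45.5% of all genes). Among other receptors of bile acids and xenobiotics, GPBAR1, the membrane bile acid receptor, changed by -0.20 ± 0.14 and -0.24 ± 0.14, and CYP1A1, a target of the aryl hydrocarbon receptor, by -0.36 ± 0.24 and -0.45 ± 0.24. AHRR, another target of that receptor, changed by 0.14 ± 0.12 and 0.39 ± 0.12.

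Cholesterol synthesis and uptake had 28 tested members, 4 higher and 3 lower at an unadjusted p under 0.05 on the average, and a median of -0.02. HSD17B7 and MVD, enzymes of the pathway, had average changes of -0.24 ± 0.10 and -0.40 ± 0.13. GCLM, the regulatory subunit for glutathione synthesis and a member of the NRF2 list, changed by 0.22 ± 0.14 and 0.66 ± 0.14. Of that list 3 of 30 were higher and none lower at an unadjusted p under 0.05 (10%, against 17.5% of all genes). TXNRD1 of the list was on average higher in CDCA with S154A and lower with S154D, and NFE2L2 and AKR1C3 the reverse. Both changes had one sign in 13 of the 30 genes (43.3%, against 45.5% of all genes). CES1, a liver carboxylesterase, averaged -0.81 ± 0.28 and ACOT2, a mitochondrial thioesterase, -0.46 ± 0.18. The other kept probes of ACOT2 gave -0.22 with S154A and 0.21 with S154D, and -0.41 and 0.23. The inflammatory list had 22 tested members, 4 higher and 2 lower at an unadjusted p under 0.05 (27.3%, against 17.5%), and of its chemokines CCL2 averaged 0.26 ± 0.10 and CXCL3 -0.40 ± 0.15. The mean of all kept probes of CXCL3 averaged 0.074. Among 19 tested targets of cAMP and CREB, 1 was higher and 3 were lower at an unadjusted p under 0.05 (21.1%, against 17.5%). Their median was -0.06, against -0.02 over all genes. CREM, a cAMP-responsive factor, averaged 0.23 ± 0.11 and BDNF -0.14. FOSB and PER2 of that list were on average lower in CDCA with S154A and higher with S154D. THBS2, a matrix protein, averaged 0.20 ± 0.07. None of these was called.

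The split between higher and lower genes depended on the scaling. Centring on the median in place of the 75th percentile gave 70 same-way genes higher and 10 lower, against 58 and 38, and made 81.1% of the genes with an unadjusted p under 0.05 on the average higher, against 51.3%. With normexp background subtraction the share was 41.0%. The median change of all genes with S154D was -0.01 by the 75th percentile and 0.10 by the median, and without scaling it was 0.18 with S154D and -0.14 with S154A. Of the 96 genes, 60 met the same-way rule with median centring, 52 with normexp, 73 with quantile normalisation and 3 without scaling. At the precision of 3 arrays per group, the 95% interval of the average lay within a 2-fold change either way for 18493 genes (90.8%).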

How the data were processed

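Intensities came from 12 one-colour scanner files deposited by the authors, 1 per array, with 3 arrays in each of 4 groups taken from the sample titles. Per the file headers, Agilent Feature Extraction 9.5.3.1 had background-subtracted and detrended the processed signal, while the submitters' processing notes name version 12, and probe coordinates are of hg17. In the authors' deposited table for the series the intensity of each array equals that of its scanner file at all 45015 features. Deposited per-spot flags, coded as a score of 0 or 1, marked outliers and spots well above background.

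From there, log2 of the processed signal was centred on the 75th percentile of the 43376 non-control spots of each array, outlier spots were removed, spots were averaged to 41000 probes, and the 26901 probes well above background on all 3 arrays of a group were kept. The brightest kept probe stood for a gene (20357 genes, 14744 with a symbol, 115 with a missing value on some array). The 4 group means were fitted with limma 3.58.1 (R 4.3.3, package data.table, 1.17.8; 8 residual and 2.30 prior degrees of freedom), tested on simulated data. Tests were two-sided. Errors are standard errors of the fit. GC content was corrected on each array by a natural spline with 4 degrees of freedom. A rise from a group with no array well above background was set against the dimmest signal well above background on each of its arrays, and is printed as "at least". Arrays limit the precision, and no array pair of a group held identical values.

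Named genes were, among those with a symbol called on the average and moved the same way without overlap, the 12 largest rises and falls, filled to 10 per direction by the smallest larger p; the 5 called genes with the largest average whose responses differed; NR1H4, FABP6, FGF19 and OSTalpha; and up to 4 members of each of 23 lists. Not all of them are reported here. The members and lists were chosen with earlier results of these data known. Alternatives covered normalisation, background, filters, probe choice, probe GC, slide, replicate number, the model and each array.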

Additional observations from a re-analysis of the deposited data

Results flagged for a closer look

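In 6 of the 8 genes called on the average, the responses to CDCA with the 2 mutants differed by a test of the difference itself (limma, adjusted over all genes). The difference, S154D minus S154A on the log2 scale, was -6.92 ± 0.80 (SE) for FABP6, -3.02 ± 0.35 for A_32_P232437, -2.36 ± 0.25 for OSTalpha, -1.95 ± 0.21 for RBP4 and -1.20 ± 0.14 for BAIAP2L2, each with an adjusted p of 0.0213. It was -1.62 ± 0.22 for MYOM2, with an adjusted p of 0.0371. FABP6 with S154D was well above background on 1 DMSO array and 2 CDCA arrays, so the size of its difference is uncertain. Groups of 3 arrays are too small to look for a single outlying array by the range of a group.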

How the results depend on the processing

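The 8 calls on the average became 5 without scaling, 1 with slide as a fixed block, 2 without slide 2, 4 without slide 4, 5 with an added minimum of 2-fold, and 0 without slide 1, without slide 3, in the additive model or with slide block and GC correction together (added after seeing the data). Those 4 limma fits had 2431, 1207, 2475 and 1945 genes at an unadjusted p under 0.05. Leaving out 1 array gave 3 to 80 calls. The 96 same-way genes became 5 without scaling, 42 with the GC correction, 35 with the slide block, 18 without slide 3 and 19 with block and correction, and 54 to 247 without 1 array. Under every setting fitted to both mutants no gene passed the adjusted larger p. The 6 called genes whose responses differed became 1 without scaling, 2 without slide 2, and 0 with no filter on dim probes, with the slide block, with block and correction, or without slide 1, 3 or 4, and 0 to 7 without 1 array. Other settings kept these counts within 1.5 times. The main fit did not pair arrays by replicate number. Same-numbered arrays correlated at -0.35 to 0.51 over 18 pairs (median 0.09), which does not settle whether the numbers mark pairs. A replicate block gave 5 calls and 79 same-way genes, and with the GC correction 6 and 39. Of 1638 refits of the average change of 53 named genes, 3 reversed, all on the mean of a gene's probes: VAV2 at -0.058, BCOR at -0.13 and CXCL3 at 0.074. A called gene lost its call in 87, and an uncalled one gained it in 12. The causes were not tested. Signal over background limits FGF19 and BQ447829, whose S154A rises are bounds. It also limits the S154D changes of FABP6 and A_32_P232437, and with them their differences between the mutants. With S154D, FABP6 was well above background on 1 DMSO array and 2 CDCA arrays, and A_32_P232437 on 2 DMSO arrays and 3 CDCA arrays.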
